A study of Mus musculus with 2 samples.

Results

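The BAF complex is the SWI/SNF chromatin remodeller of mammals. The form built in embryonic stem cells is described here through 10 subunit genes, 3 of which encode forms known from differentiated cells. The members were Smarca4, Smarca2, Smarcc1, Smarcc2, Smarcb1, Smarcd1, Smarcd3, Arid1a, Actl6a and Dpf2, taken by gene symbol from the 24061 rows of the deposited read count table, and all 10 had a row. A complex of this type carries a single ATPase, SMARCA4 (BRG1) or SMARCA2 (BRM), which uses ATP to slide or evict nucleosomes, on a scaffold of SMARCC, SMARCD and ARID subunits. In mouse embryonic stem cells the complex is known to use SMARCA4 and SMARCC1 and to act with the pluripotency factors, whereas SMARCA2, SMARCC2 and SMARCD3 are known as forms of differentiated cells. Several positions in the complex can be filled by either of a set of paralogous proteins, so the pairs of paralogues were also compared.

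Polyadenylated RNA of 2 mouse embryonic stem cell samples of the C57BL/6 strain was sequenced, as 1 library per group. The first, labelled mES-Pc4-OE, stands for cells made to overexpress Pc4 (encoded by Sub1, a single-stranded DNA-binding coactivator) from a lentivirus that also carries the yellow fluorescent marker Venus, at passages 24 to 37. The second, labelled mES-control, was at passages 17 to 23, and the labels do not say whether it carried a virus. Both were grown on mouse embryonic fibroblast feeders in medium with serum replacement and leukaemia inhibitory factor. The design text names 3 overexpressing lines, and the labels do not say which of them gave the library or whether the feeders were removed. Passage and group cannot be told apart.

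With 1 library per group no test of the conditions was possible and no p-value is given. Each ratio is that of 2 libraries, with a 95% exact binomial interval that covers counting error only. The library labelled Pc4-OE held 10194783 counts and the control library 10571463. Sub1 stood at 235.0 CPM (each gene's share of the library's counts, scaled up as counts per 1000000 on TMM-normalised library sizes) in the library labelled Pc4-OE and at 530.3 CPM in the control library. That is a log2 ratio of -1.17 (interval -1.24 to -1.11), which goes against the label, so each direction here is that of the libraries as labelled. Ifrd1, which has PC4 as a synonym too, had 1081 counts in Pc4-OE and 1207 in control. The stem cell identity of both libraries was visible in Pou5f1 (571.4 CPM in Pc4-OE, 1092.2 CPM in control), Sox2 (456.1 CPM in Pc4-OE, 461.0 CPM in control) and Nanog (506.1 CPM in Pc4-OE, 427.5 CPM in control).

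The promoters of the stem cell forms Smarca4 and Smarcc1 and of their somatic paralogues Smarca2 and Smarcc2 are shown. Smarcd3, the other somatic form, is a paralogue of neither stem cell form and its window is not shown. Each sequence is the RefSeq window from 250 bases before to 50 bases after a transcription start of the GRCm38.p6 assembly, on the coding strand. Capitals mark matches on either strand to any of 9 short motifs.
Smarca4, chr9:21615919-21616218, plus strand: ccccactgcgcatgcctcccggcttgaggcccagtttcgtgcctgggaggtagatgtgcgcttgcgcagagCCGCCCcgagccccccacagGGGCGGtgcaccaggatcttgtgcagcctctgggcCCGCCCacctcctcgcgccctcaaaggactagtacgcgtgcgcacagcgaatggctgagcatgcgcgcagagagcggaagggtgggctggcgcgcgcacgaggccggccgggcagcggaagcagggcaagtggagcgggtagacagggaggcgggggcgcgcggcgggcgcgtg
Smarca2, chr19:26604910-26605209, plus strand: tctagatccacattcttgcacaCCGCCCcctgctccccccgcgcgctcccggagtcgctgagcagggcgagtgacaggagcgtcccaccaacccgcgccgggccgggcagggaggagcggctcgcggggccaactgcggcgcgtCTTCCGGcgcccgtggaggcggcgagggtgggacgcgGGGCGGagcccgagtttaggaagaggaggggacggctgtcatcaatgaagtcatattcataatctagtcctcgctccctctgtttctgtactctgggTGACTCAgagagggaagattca
Smarcc1, chr9:110131774-110132073, plus strand: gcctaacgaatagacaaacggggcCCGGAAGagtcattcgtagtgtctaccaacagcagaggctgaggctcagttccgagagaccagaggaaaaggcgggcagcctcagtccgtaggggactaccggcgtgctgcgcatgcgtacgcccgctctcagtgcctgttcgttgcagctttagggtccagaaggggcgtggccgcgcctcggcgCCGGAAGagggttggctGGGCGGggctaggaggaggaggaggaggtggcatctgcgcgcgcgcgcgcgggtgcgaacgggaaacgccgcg
Smarcc2, chr10:128458986-128459285, plus strand: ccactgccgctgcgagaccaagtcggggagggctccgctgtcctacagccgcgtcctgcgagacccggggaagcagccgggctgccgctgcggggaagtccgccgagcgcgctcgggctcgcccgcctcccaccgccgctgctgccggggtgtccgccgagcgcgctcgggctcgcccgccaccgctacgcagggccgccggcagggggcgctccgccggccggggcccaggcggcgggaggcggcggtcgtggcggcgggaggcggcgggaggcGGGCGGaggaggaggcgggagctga
The capitals in these 4 windows are matches to GGGCGG (a GC box bound by Sp and KLF factors), CCGGAAG (an ETS site) and TGANTCA (an AP-1 site). Smarca4 held 3 GC boxes, Smarca2 held 2 together with 1 ETS site and 1 AP-1 site, Smarcc1 held 1 GC box and 2 ETS sites, and Smarcc2 held 1 GC box. Over the 11 windows listed for the members (Arid1a has 2), 10 held GGGCGG, against 35.7% of 32851 promoter windows of the same length. CCGGAAG was in 2 of the 11 and in 8.86% of all windows, and TGANTCA in 2 of the 11 and in 7.81% of all. CCAAT (NF-Y) was in 1 of the 11 (37.4% of all), ATGGCG (YY1) in 1 (8.93%) and CATTCC (TEAD) in 1 (14.7%). CACGTG, the E-box, was in 0 of the 11 and in 7.15% of all windows. The core promoter element TATAAA was in 0 of the 11 and in 13.6% of all, and ATGCAAAT, the octamer of POU factors, in 0 of the 11 and in 1.74% of all. The member windows held between 20 (Dpf2) and 48 (Smarcc2) CpG dinucleotides, against a median of 7 over all windows. The 32851 windows were not matched to them for base composition, and the part of CpG content in the motif shares was not tested. The motifs may overlap each other, and a match describes the letters of the window only.

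The ATPase genes differed in opposite directions. Smarca2 (chromosome 19, 26605073 to 26778321 on GRCm38) had 346 counts (33.4 CPM) in the Pc4-OE library and 153 counts (14.7 CPM) in the control library. It was 2.28-fold higher in Pc4-OE (interval 1.88 to 2.77), a log2 ratio of 1.19 (0.91 to 1.47). Smarca4 (chromosome 9, 21616106 to 21704230) had 3280 counts (316.9 CPM) in Pc4-OE and 3899 counts (374.4 CPM) in control. Its log2 ratio was -0.24 (-0.31 to -0.17), or 1.18-fold lower in Pc4-OE. No other gene with a row overlaps Smarca4, and the 1 that overlaps Smarca2, 4931403E22Rik, had 2 counts in Pc4-OE and 3 in control.

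The 2-fold rule used here asks for a ratio of 2 or more in either direction and for an interval that leaves out 1. Of the 10 members Smarca2 alone met it, as higher, and 0 met it as lower. With a coefficient of variation of 0.4 assumed between cultures, the interval of Smarca2 ran from -0.44 to 2.81 (log2) and it did not meet the rule. Over the 14213 genes whose counts in the pair of libraries summed to 20 or more, 11.8% met the rule as higher and 4.02% as lower, so 1 member in 10 is close to the background. Among the 9296 genes with a mean CPM within the members' range (12.7 to 417.3), 7.7% were higher and 2.5% lower. All 10 members had enough counts to be measured. The median log2 ratio of the members was -0.19, against -0.01 over all measured genes and -0.07 over the genes of the same CPM range.

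**Figure D1:**
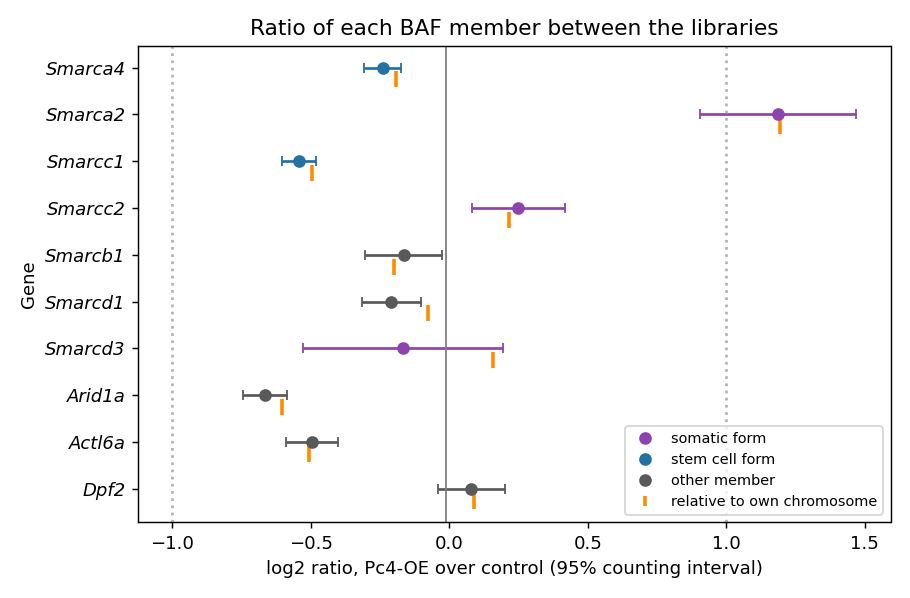
log2 ratio of each of the 10 BAF members, Pc4-OE over control, with its 95% counting interval. Purple points are the somatic forms, blue points the stem cell forms and grey points the other members; orange ticks give the ratio relative to the median of the gene's own chromosome, the grey line marks the median of all measured genes (-0.01) and dotted lines mark 2-fold. Smarca2 (1.19) lies beyond the upper dotted line and Arid1a (-0.66) is lowest.

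Markers of the feeder cell type and of macrophages were higher in the same library as Smarca2. All 24 embryonic fibroblast markers had a ratio above 1 and 19 met the rule as higher, with a median log2 ratio of 1.29. Their summed level was 20188 CPM in the Pc4-OE library and 7957 CPM in the control library, and none of them was at 0 in either. The clearest were Acta2 (smooth muscle actin, 5.81-fold), Lox (which cross-links collagen, 5.39-fold), Fbln2 (fibulin of the matrix, 5.31-fold) and Mmp2 (a gelatinase, 4.16-fold). Of 17 macrophage markers, 16 were measured, 16 had a ratio above 1 and 15 met the rule as higher, with a median of 2.07 and a summed level of 599.5 CPM in Pc4-OE and 228.6 CPM in control. Of all 14213 measured genes, 7001 had a ratio above 1 and 11.8% met the rule as higher, against 7.7% in the members' CPM range. C1qc, a complement subunit, had 102 counts in Pc4-OE and 8 in control, and C1qa, of the same complement component, 94 in Pc4-OE and 11 in control. Tyrobp, a myeloid signalling adaptor, had 124 counts in Pc4-OE and 12 in control. Lyz2, a macrophage lysozyme, had 2133 in Pc4-OE and 426 in control. Lyz1 had 2 counts in Pc4-OE and 0 in control. Fibroblasts also express Smarca2, and the part of these cells in its value was not tested. In such bulk RNA fewer cells of a type and less RNA per cell cannot be told apart.

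The scaffold paralogues also stood on opposite sides of 1, with smaller differences. Smarcc1, which encodes the scaffold BAF155 of the stem cell complex, had 3516 counts (339.7 CPM) in Pc4-OE and 5153 counts (494.9 CPM) in control. Its log2 ratio was -0.54 (-0.60 to -0.48), a level 1.46-fold lower in Pc4-OE that does not meet the rule. Smarcc2, which encodes BAF170, had 644 counts (62.2 CPM) in Pc4-OE and 545 counts (52.3 CPM) in control, a log2 ratio of 0.25 (0.08 to 0.42).

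Of the 3 somatic forms, Smarca2 and Smarcc2 were higher in Pc4-OE, and no direction could be given to Smarcd3. Smarcd3, which encodes BAF60C, a subunit known from heart and muscle, had 124 counts (11.98 CPM) in Pc4-OE and 140 counts (13.4 CPM) in control. The log2 ratio of -0.17 had an interval that holds 1 as a ratio (-0.53 to 0.19), so a difference was not detectable at this depth. Smarcd3 lies on chromosome 5, whose genes had a median log2 ratio of -0.32. Relative to that median its log2 ratio was 0.16, so its sign depends on that choice. Its annotated span overlaps that of Chpf2, which had 562 counts in Pc4-OE and 255 in control, and reads in the overlap may be shared. Its 49 neighbours within 5 Mb that averaged 5 CPM or more had a median of -0.41.

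Among the core and accessory subunits that the rule lists besides these, Arid1a and Actl6a were lower in the Pc4-OE library. Arid1a, which encodes BAF250a, the large DNA-binding subunit that sets apart the canonical BAF complex, had 2118 counts (204.6 CPM) in Pc4-OE and 3377 counts (324.3 CPM) in control. At a log2 ratio of -0.66 (-0.74 to -0.59) it was the lowest of the 10 members and still within 2-fold. Actl6a, which encodes the actin-related BAF53a, had 1560 counts (150.7 CPM) in Pc4-OE and 2211 counts (212.3 CPM) in control, a log2 ratio of -0.49 (-0.59 to -0.40). The intervals of Arid1a, Smarcc1 and Actl6a overlapped from neighbour to neighbour, and all of them lay below that of Smarca4.

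Smarcb1, Smarcd1 and Dpf2 lay closer to 1. Smarcb1, the core subunit known as INI1 or SNF5, had 812 counts (78.5 CPM) in Pc4-OE and 916 counts (88.0 CPM) in control, a log2 ratio of -0.17 (-0.30 to -0.03). Smarcd1, which encodes BAF60A, had 1339 counts (129.4 CPM) in Pc4-OE and 1558 counts (149.6 CPM) in control, a log2 ratio of -0.21 (-0.32 to -0.10). Smarcd1 lies on chromosome 15, as Sub1 does, and relative to the median of that chromosome (-0.13) its log2 ratio was -0.08 (-0.18 to 0.03). Dpf2, which encodes the histone-reading subunit BAF45d, had 1152 counts (111.3 CPM) in Pc4-OE and 1097 counts (105.4 CPM) in control, a log2 ratio of 0.08 (-0.04 to 0.20). Counting intervals lay wholly below 1 for 6 of the 10 members and wholly above it for 2. Over all measured genes these shares were 33.1% below and 31.2% above, and over genes of the members' CPM range 40.9% and 31.6%.

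**Figure D2:**
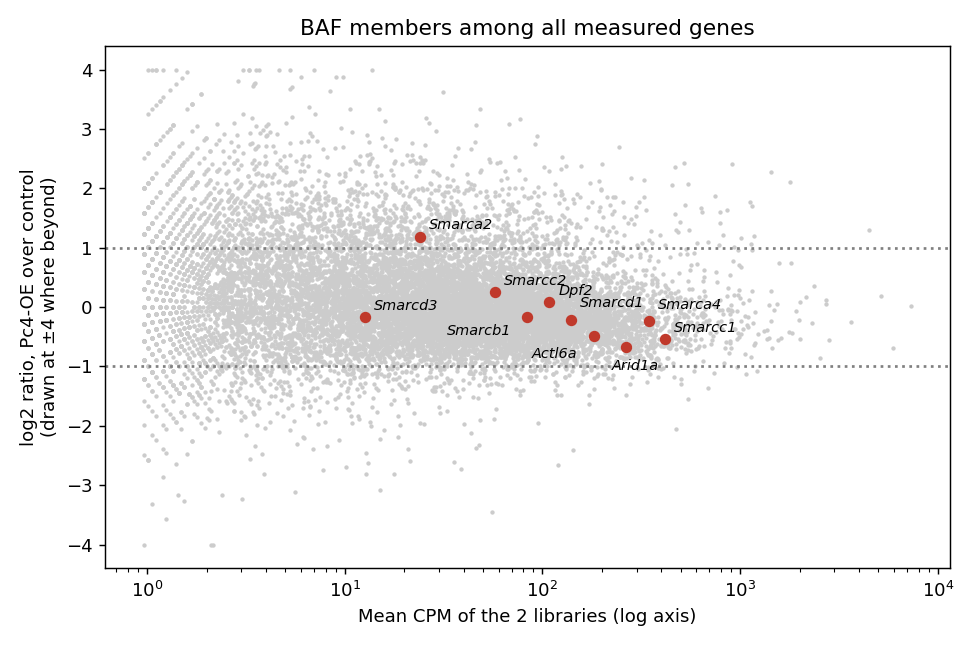
Mean CPM of both libraries (log axis) against the log2 ratio of Pc4-OE over control for all 14213 measured genes (grey), with the 10 members in red; dotted lines mark 2-fold. Smarca2 stands above the upper line and the other 9 members lie between the lines.

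Per kilobase of the longest coding transcript in GENCODE M21, the members kept nearly the same order of levels in both libraries. Actl6a was highest, at 75.0 CPM per kilobase in Pc4-OE and 105.6 in control, followed by Smarcc1 (58.8 in Pc4-OE, 85.7 in control) and Smarca4 (49.7 in Pc4-OE, 58.7 in control). Smarcb1 (47.3 in Pc4-OE, 53.0 in control) and Smarcd1 (39.1 in Pc4-OE, 45.2 in control) came next in both. Arid1a and Dpf2 exchanged places. Arid1a was at 25.0 CPM per kilobase in Pc4-OE and 39.6 in control, and Dpf2 at 33.6 in Pc4-OE and 31.8 in control. The 3 somatic forms were the lowest members in both libraries. Smarcc2 stood at 13.6 CPM per kilobase in Pc4-OE and 11.5 in control, Smarcd3 at 6.91 in Pc4-OE and 7.75 in control, and Smarca2 at 5.65 in Pc4-OE and 2.48 in control. Neighbours in the order had separate Poisson intervals except Smarca4 with Smarcb1 and Smarcd3 with Smarca2, both in Pc4-OE. With the joined length of all exons of coding transcripts in place of the longest transcript, Smarca2 was at 4.58 in Pc4-OE and 2.01 in control and was still the lowest.

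**Figure D3:**
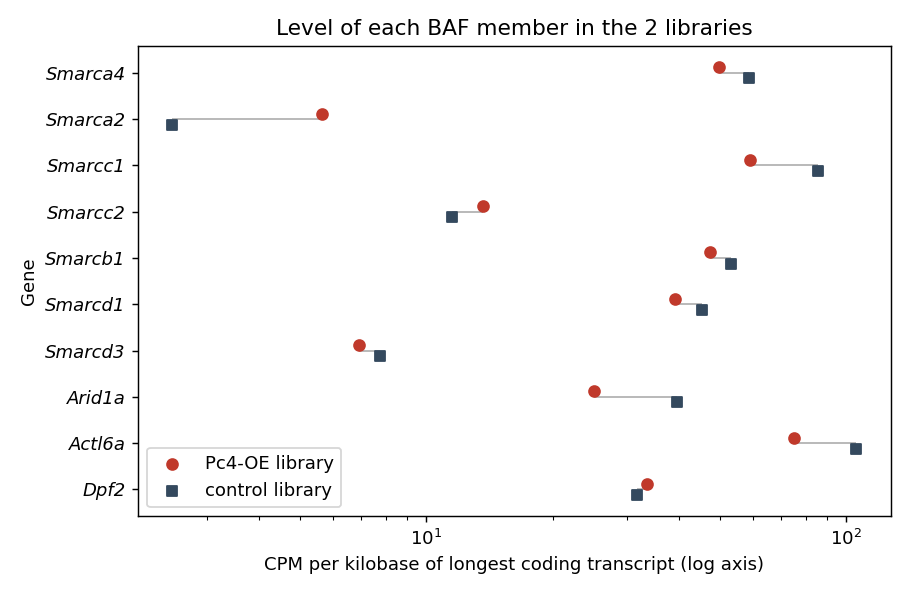
Level of each member in CPM per kilobase of its longest coding transcript (log axis), with the Pc4-OE library as red circles and the control library as dark squares. The somatic forms Smarca2, Smarcc2 and Smarcd3 lie to the left of all other members in both libraries, and Smarca2 shows the widest gap (5.65 in Pc4-OE, 2.48 in control).

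The ratio of 2 paralogues within a library does not depend on scaling, and its change between libraries does not depend on gene length. Both can still depend on the mix of cells in each library. The fibroblast markers summed to 20188 CPM in Pc4-OE and 7957 CPM in control, and the part of such cells in the pair ratios was not tested. Smarca2 took 9.54% (exact binomial interval 8.61 to 10.5%) of the counts of the Smarca4 and Smarca2 pair in Pc4-OE and 3.78% (3.21 to 4.41%) in control. Relative to Smarca4 it was 2.69-fold higher in Pc4-OE (interval 2.20 to 3.29). Per kilobase, Smarca4 exceeded Smarca2 by 8.80-fold in Pc4-OE and by 23.7-fold in control, so Smarca4 was the more abundant ATPase transcript in both.

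Smarcc2 took 15.5% (14.4 to 16.6%) of the counts of its pair with Smarcc1 in Pc4-OE and 9.56% (8.81 to 10.4%) in control, 1.73-fold higher relative to Smarcc1 (1.53 to 1.960). Per kilobase, Smarcc1 exceeded Smarcc2 by 4.31-fold in Pc4-OE and 7.47-fold in control. For the third somatic form a difference was not detectable. Smarcd3 took 8.48% (7.10 to 10.02%) of its pair with Smarcd1 in Pc4-OE and 8.24% (6.98 to 9.66%) in control, a ratio of ratios of 1.03 (0.79 to 1.34). That interval still allows Smarcd3 to be up to 1.34-fold higher relative to Smarcd1.

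**Figure D4:**
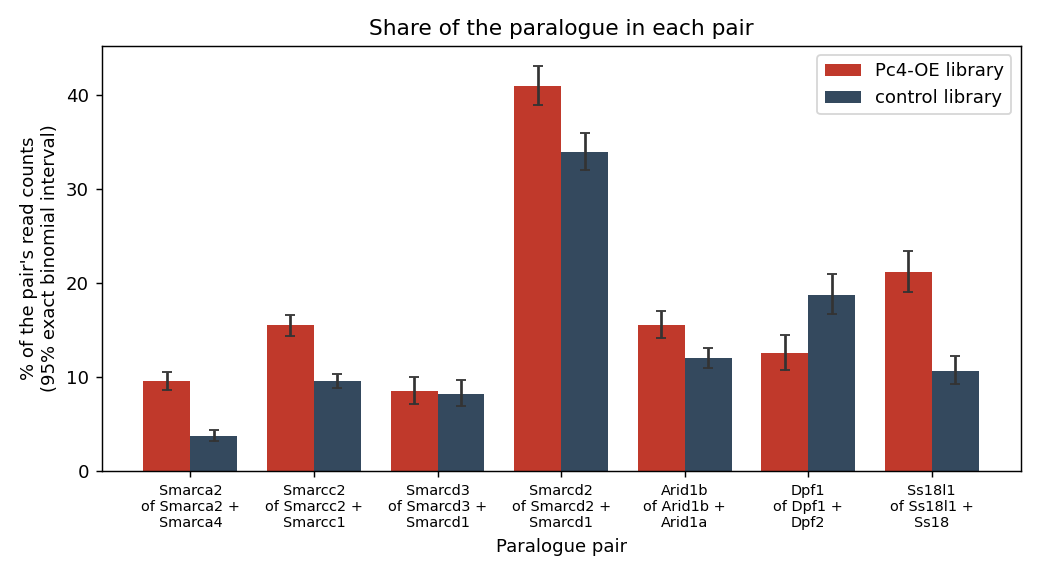
Share of the second paralogue in the read counts of its pair, in percent with exact 95% binomial intervals, for the Pc4-OE library (red, left) and the control library (dark, right). The share is higher in Pc4-OE for Smarca2 (9.54% in Pc4-OE, 3.78% in control), Smarcc2, Smarcd2, Arid1b and Ss18l1, about equal for Smarcd3 and lower for Dpf1.

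The other paralogues of the members were counted in the same way. Smarcd2, which encodes BAF60B, had 929 counts in Pc4-OE and 800 in control (log2 ratio 0.22, 0.09 to 0.36) and was 1.35-fold higher relative to Smarcd1 (1.20 to 1.53). Smarcd1, Smarcd2 and Smarcd3 made up 49.7%, 41.5% and 8.77% of the summed level per kilobase at this position in Pc4-OE, and 55.9%, 34.5% and 9.57% in control. Arid1b, the alternative to Arid1a, had 390 counts in Pc4-OE and 461 in control (log2 ratio -0.23, -0.43 to -0.03) and was 1.35-fold higher relative to Arid1a (1.16 to 1.56). Both ARID1 genes had a ratio below 1, and their summed level was 28.3 CPM per kilobase in Pc4-OE and 43.5 in control, a log2 ratio of -0.62. Arid1a made up 88.3% of that sum in Pc4-OE and 91.0% in control. With library totals the log2 interval of Arid1b (-0.39 to 0.01) held 1 as a ratio. Relative to its own chromosome it did so too (-0.35 to 0.05).

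Of the 7 pairs measured, Ss18l1 with Ss18 had the widest difference after Smarca2 with Smarca4. This gene, which encodes CREST, a subunit known from the complex of neurons, had 300 counts (29.0 CPM) in Pc4-OE and 184 counts (17.7 CPM) in control (log2 ratio 0.71, 0.44 to 0.99). Its paralogue Ss18 had 1117 counts in Pc4-OE and 1542 in control (log2 ratio -0.46, -0.57 to -0.34). Ss18l1 was 2.25-fold higher relative to Ss18 (1.84 to 2.76), although neither gene meets the 2-fold rule by itself. Dpf1, a neuronal paralogue of Dpf2, went the other way, with 165 counts in Pc4-OE and 253 in control (log2 ratio -0.61, -0.90 to -0.32), 1.61-fold lower relative to Dpf2.

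Of the remaining subunits known from neurons, Actl6b and Dpf3 had too few counts to be measured, whereas Bcl11a and Bcl11b were measured. Actl6b, the neuronal counterpart of Actl6a, had 0 counts in both, which allows up to 0.290 CPM in Pc4-OE and 0.288 CPM in control (3 counts each). Dpf3 had 9 counts in Pc4-OE and 8 in control and was not measured. Bcl11a, a zinc finger factor found with BAF complexes, had 43 counts in Pc4-OE and 90 in control, a log2 ratio of -1.06 (-1.62 to -0.52). It was the only subunit outside the 10 members to meet the 2-fold rule, and with a pseudocount of 0.5 CPM its log2 ratio of -0.97 does not. Over all measured genes 4.02% met the rule as lower and 11.8% as higher. Its relative Bcl11b had 74 counts in Pc4-OE and 44 in control, a log2 ratio of 0.76 (0.20 to 1.33).

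Smarce1, Actb and the BCL7 genes were listed here as common BAF subunits, and 0 of these 5 genes met the 2-fold rule. Over all measured genes 11.8% met it as higher and 4.02% as lower, so 0 of 5 is close to the background. Smarce1, which encodes the HMG-box subunit BAF57, had 321 counts in Pc4-OE and 450 in control (log2 ratio -0.48, -0.69 to -0.27). Actb, whose actin is a part of the complex and of the cytoskeleton, had a log2 ratio of -0.53 (-0.56 to -0.50). Bcl7a had one of -0.26 (-0.50 to -0.03), Bcl7b of -0.39 (-0.71 to -0.07) and Bcl7c of -0.13 (-0.52 to 0.26). Actb, Bcl7a and Bcl7b lie on chromosome 5, and relative to its median they had log2 ratios of -0.21, 0.06 and -0.07, so the sign of Bcl7a depends on that choice. Actb and Smarce1 have processed pseudogenes, and their counts are uncertain because the handling of multi-mapping reads is not known here.

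The variant complexes were compared through the subunits that define them. All 4 genes of PBAF, the complex with polybromo, had intervals below 1 and 0 met the 2-fold rule. Such intervals were found for 33.1% of all measured genes and for 40.9% in the members' CPM range. Pbrm1, which encodes polybromo, had a log2 ratio of -0.27 (-0.36 to -0.18), Brd7 of -0.19 (-0.32 to -0.05) and Phf10 of -0.25 (-0.39 to -0.12). Relative to the median of its own chromosome Brd7 stood at -0.095 (-0.228 to 0.037), an interval that holds 1 as a ratio. Arid2, which takes the place of ARID1 in PBAF, had 1093 counts in Pc4-OE and 1864 in control (log2 ratio -0.76, -0.87 to -0.65), a ratio below those of the 10 members, with an interval that overlaps that of Arid1a. Of the non-canonical complex, Gltscr1l had a log2 ratio of -0.68 (-0.82 to -0.55), Gltscr1 of -0.23 (-0.49 to 0.03) and Brd9, its bromodomain subunit, of 0.26 (0.04 to 0.48). Over the 19 measured subunits that are not among the 10 members, 15 lay below a ratio of 1, at a median of -0.26, with 0 higher and 1 lower by the 2-fold rule. Of all measured genes 50.7% lay below 1, and of the genes in the members' CPM range 55.5%. The rule was met as higher by 11.8% of all measured genes and 7.7% of those in that range. As lower it was met by 4.02% and 2.5%.

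**Figure D5:**
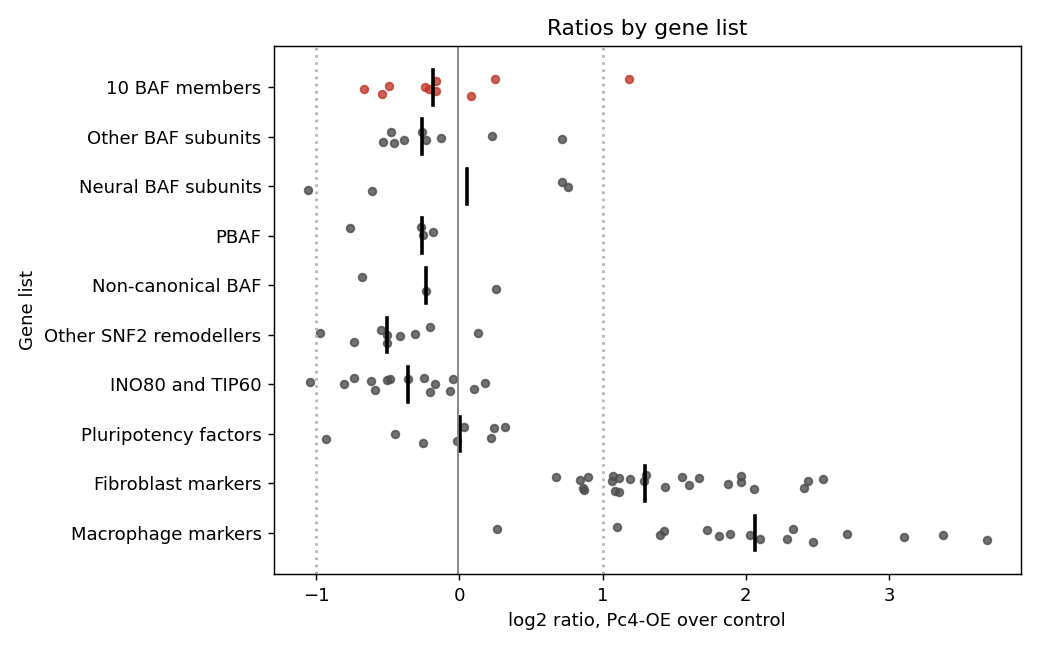
log2 ratio of Pc4-OE over control for each measured gene of 10 lists, with the 10 BAF members in red; black bars are list medians, the grey line is the median of all measured genes and dotted lines mark 2-fold. The medians of the BAF members (-0.19), PBAF (-0.26) and the other SNF2 remodellers (-0.50) lie left of 0, and those of the fibroblast (1.29) and macrophage (2.07) markers lie right of it.

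Other remodellers and the complexes that share ACTL6A were set against the same background of 50.7% of all measured genes below a ratio of 1 (55.5% in the members' CPM range). Whole intervals lay below 1 for 33.1% of all measured genes and for 40.9% in that range. The 2-fold rule was met as lower by 4.02% and 2.5%, and as higher by 11.8% and 7.7%. Of 9 further genes of the SNF2 ATPase family, 8 had a ratio below 1 (8 with the whole interval below it), 0 met the 2-fold rule, and the median log2 ratio was -0.50 (members from -0.97 to 0.13). Of 15 genes of the INO80 and TIP60 complexes, 13 lay below a ratio of 1, 10 of them with the whole interval below it while 5 of the 15 intervals held 1. Ruvbl1, an AAA+ ATPase, met the rule as lower (334 counts in Pc4-OE, 691 in control, log2 ratio -1.04, -1.23 to -0.85). The median of the 15 was -0.36, and Ino80 and Ep400 stand in both lists. Genes for the pluripotency factors that act with the stem cell BAF complex were divided, with 4 of 8 above a ratio of 1 and a median of 0.01 (-0.02 relative to the genes' own chromosomes). Pou5f1 had a log2 ratio of -0.93 (-0.98 to -0.89), Sox2 of -0.02 (-0.07 to 0.04), Nanog of 0.24 (0.19 to 0.30) and Stat3, the effector of leukaemia inhibitory factor, of 0.32 (0.22 to 0.41).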

How the data were processed

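The deposited table gives raw counts of reads for each gene, with a column for either library. Per the submitters' processing notes, STAR 2.4.1c, featureCounts and the build mm10 were used. The annotation, strand setting and treatment of multi-mapping reads were not given in the sources used here.

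Counts were scaled by TMM (edgeR 4.0.16) over the whole table and given as CPM. Ratios were taken without a pseudocount for the 14213 genes whose counts summed to 20 or more, with exact (Clopper-Pearson) intervals. Pair ratios are conditional odds ratios with exact intervals (scipy 1.17.1). Floors are 3 counts. Intervals and floors cover counting error only. PCR reads are not independent molecules, so even that error may be understated. The single-gene ratios, their intervals and the 2-fold rule were tested on counts simulated with counting error only. The other steps were not part of that test. Chromosome medians use genes averaging 5 CPM or more, placed by a RefSeq table of GRCm38.p6, the assembly that mm10 copies (23973 of 24061 rows matched by gene ID). Transcript lengths come from GENCODE M21, and 1 listed symbol was not analysed here.

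The genes named are the 10 members, the listed BAF, PBAF and non-canonical subunits, Sub1, Ifrd1, Pou5f1, Sox2, Nanog, Stat3 and, of the other lists, up to 4 genes that met the 2-fold rule, by the interval bound nearest to 1. Chpf2, 4931403E22Rik, Lyz1 and the motifs were added after values were seen. Members and lists were chosen with earlier results of these data known.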

Additional observations from a re-analysis of the deposited data

How the results depend on the processing

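No paired analysis was possible because each group has 1 library and the labels give no replicate numbers; for the same reason no library could be left out. Scaling by library totals, DESeq2 1.42.0 size factors or upper quartiles, a pseudocount of 0.5 CPM, no count minimum, and a minimum of 100 counts left each of the 10 members on its side of 1 and of the 2-fold rule, with Smarca2 between 1.16 and 1.23 (log2). With the spread between cultures assumed to have a coefficient of variation of 0.4, Smarca2 (1.19, interval -0.44 to 2.81) no longer meets the rule, and 0 members, 0 other SWI/SNF subunits lower, 597 genes higher and 96 lower meet it, against 1, 1, 1673 and 572. With the pseudocount 0 other subunits are lower. With a minimum of 100 counts, 1095 genes are higher and 366 lower, as fewer genes are measured. With library totals the log2 interval of Smarcb1 (-0.26 to 0.02) held 1 as a ratio, and that of Dpf2 (0.002 to 0.244) lay above it. The number of members with intervals wholly below or above 1 therefore depends on the scaling. Relative to its own chromosome Smarcd1 stood at -0.077 and Smarcd3 at 0.16. The pair ratios stayed within their intervals with the pseudocount. Among the members Smarcd3 had the fewest counts; Dpf3 and Actl6b had too few to be measured.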
